A study of Mus musculus with 12 samples.

Results

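The cytochrome P450 epoxygenase route of fatty acid metabolism was followed in mouse intestine through 9 genes, Cyp2c29, Cyp2c38, Cyp2c55, Cyp2c65, Cyp2c66, Cyp2c68, Cyp2j6, Ephx1 and Ephx2. They are 9 of the 47643 genes in the deposited table. The group was chosen by a measured value, since Cyp2c65 was lower in KO than in WT libraries on the high-fat diet, and that difference is therefore described here and not tested. Expression was measured by bulk RNA-seq in 12 libraries, 3 in each of 4 groups. KO HFD libraries came from PparaΔIE mice given a diet labelled 60% HFD, and WT HFD libraries from Pparafl/fl mice on that diet. KO chow and WT chow libraries came from PparaΔIE and Pparafl/fl mice given chow. All were male C57BL/6 mice aged 7 to 8 weeks, and each diet lasted 10 days. Pparafl/fl alleles are flanked by recombinase sites, and PparaΔIE is the usual notation for loss of the gene in the intestinal epithelium. The labels name no recombinase line, no deleted exons and no segment of intestine. Nothing in them ties each library to its own mouse, so p-values here speak of the spread among libraries, and part of that spread may be technical.

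P450 enzymes of the CYP2C and CYP2J families add oxygen across a double bond of arachidonic acid, linoleic acid and other polyunsaturated fatty acids, which yields signalling epoxides. Soluble epoxide hydrolase, the product of Ephx2, opens these epoxides to diols, and microsomal epoxide hydrolase, the product of Ephx1, does so with a wider range of substrates. The P450s sit in the endoplasmic reticulum and take electrons from the reductase encoded by Por. The receptor PPARA, encoded by Ppara, is activated by fatty acids and switches on genes for burning them.

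The 6 Cyp2c members lie in a cluster of Cyp2c genes on chromosome 19, and several are near copies of each other. Coordinates are those of GENCODE vM21 on the mm10 build. Cyp2c55 (39007019 to 39042693, plus strand), Cyp2c65 (39061015 to 39093944, plus strand) and Cyp2c66 (39113898 to 39187072, plus strand) are neighbours. Cyp2c29 (39269405 to 39330713, plus strand), Cyp2c38 (39389556 to 39463075, minus strand) and Cyp2c68 (39688834 to 39741054, minus strand) follow. Cyp2j6 lies on chromosome 4 (96516138 to 96553661), Ephx1 on chromosome 1 (180976210 to 181020904) and Ephx2 on chromosome 14 (66084374 to 66124500), all on the minus strand.

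**Figure D1:**
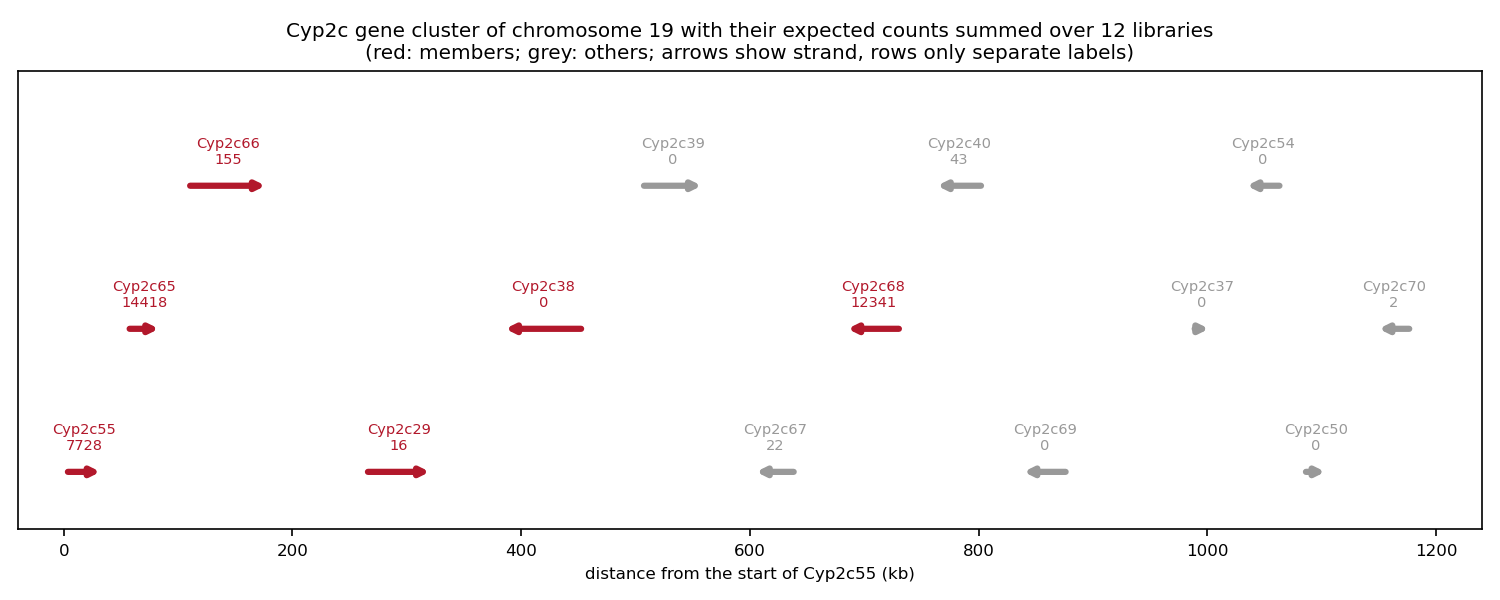
Map of the Cyp2c gene cluster on chromosome 19, to scale, with distance from the start of Cyp2c55 in kb on the horizontal axis. Arrows show each gene and its strand, and the number under each name is its expected count summed over the 12 libraries. Cyp2c55, Cyp2c65 and Cyp2c68 hold 7728, 14418 and 12341 counts, and the other genes drawn hold 0 to 155.

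How alike the members are bears on how their reads were divided, since a read that fits several genes is shared among them by the counting tool. The coding sequences of Cyp2c65 and Cyp2c66 were 96.3% identical, and those of Cyp2c68 and its neighbour Cyp2c67 were 97.2% identical. Cyp2c65 was further from Cyp2c55 (75.2%), Cyp2c68 (70.4%) and Cyp2j6 (53.4%). Of the stretches of 50 bases in its transcripts, Cyp2c65 shared 20.2% with other genes of the families, mostly Cyp2c66, and Cyp2c68 shared 43.3%, mostly with Cyp2c40. The shares were 0.514% for Cyp2c55 and 0.422% for Cyp2j6, and no stretch of Ephx1 or Ephx2 was shared. Values of Cyp2c65, Cyp2c66 and Cyp2c68 are therefore uncertain by whatever part of these reads was placed in a copy. The 30 coding bases around the cysteine that holds the heme iron show this likeness. They are given from the GENCODE transcripts, 5′ to 3′ on the coding strand, with the cysteine codon in capitals.
Cyp2c65: ttctcaacaggaaaacggattTGTgtggga
Cyp2c66: ttctcaacaggaaaacggattTGTgtggga
Cyp2c68: ttctcagcaggaaaacggattTGTgtggga
Cyp2c29: ttttcaacaggaaaacggattTGTgctgga
Cyp2c38: ttctcagcaggaaaacgggttTGTgctgga
Cyp2c55: ttctcaataggaaagcgaatgTGCgtggga
Cyp2j6: ttctcaatgggaaagcgagctTGCctggga
Cyp2c66 did not differ from Cyp2c65 in this stretch. Cyp2c68 differed from Cyp2c65 at 1 base, Cyp2c29 at 3, Cyp2c38 at 4, Cyp2c55 at 5 and Cyp2j6 at 8.

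The upstream sequences of Cyp2c65, Cyp2c66 and Cyp2c68 are shown because Cyp2c65 and Cyp2c66, near copies also in this stretch, were measured at very different levels, and because Cyp2c65 and Cyp2c68 share a motif. They are the 250 bases before each RefSeq start in GRCm38.p6, whose primary coordinates are those of mm10, 5′ to 3′ on the strand of the gene. Cyp2c65 is chr19:39060756-39061005 on the plus strand, Cyp2c66 is chr19:39113648-39113897 on the plus strand and Cyp2c68 is chr19:39741102-39741351 on the minus strand. Capitals mark the letters CAAAGTCCA, a motif of the nuclear receptor HNF4A, or its form with 1 mismatch.
Cyp2c65: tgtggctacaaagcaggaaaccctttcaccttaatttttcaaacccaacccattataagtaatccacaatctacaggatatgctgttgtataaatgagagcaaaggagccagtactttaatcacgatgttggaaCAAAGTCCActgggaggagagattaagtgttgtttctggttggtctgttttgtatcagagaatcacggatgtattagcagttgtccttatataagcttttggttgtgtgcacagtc
Cyp2c66: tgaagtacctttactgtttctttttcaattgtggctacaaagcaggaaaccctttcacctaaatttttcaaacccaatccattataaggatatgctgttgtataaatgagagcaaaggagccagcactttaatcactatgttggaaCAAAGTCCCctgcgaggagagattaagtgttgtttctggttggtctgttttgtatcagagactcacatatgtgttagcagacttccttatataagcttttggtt
Cyp2c68: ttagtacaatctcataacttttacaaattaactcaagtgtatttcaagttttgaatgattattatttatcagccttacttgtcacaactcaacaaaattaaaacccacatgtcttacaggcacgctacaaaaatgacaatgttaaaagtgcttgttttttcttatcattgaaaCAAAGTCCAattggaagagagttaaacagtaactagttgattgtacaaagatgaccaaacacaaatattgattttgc
The Cyp2c65 and Cyp2c66 stretches were identical at 208 of 238 aligned bases (87.4%). CAAAGTCCA began 116 bases before the start of Cyp2c65 and 77 bases before that of Cyp2c68. In Cyp2c66 the aligned site began 104 bases before the start and carried the substitution A9C, counted from 1 at the 5′ end of the motif. Sites with 1 mismatch at like positions were also found in Cyp2c55 (A3G, 112 bases before the start), which was measured in every library, and in Cyp2c29 (C8T, 109 bases before the start), which had few counts. Searched on both strands, CAAAGTCCA without mismatch occurred in 126 of 32851 such windows (0.384%). Sites with 1 mismatch were searched on the strand of the gene only and were not counted over all windows, so that share does not apply to them. The direct repeats DR1 (AGGTCA, 1 base and AGGTCA), to which PPARA and RXR bind as a pair, and DR4 (AGTTCA, 4 bases and AGTTCA), a spaced repeat of the receptors PXR and CAR, occurred in 0.0335% and 0.00913% of windows. Neither exact repeat was found in the windows of the 8 members that had one, so no motif overlapped another. Repeats with mismatches were not searched. Exact ones are so rare that their absence from these windows says little about sites of these receptors. Ephx2 had no window. A match is a description of letters and not a bound site.

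Library totals ran from 33621040 to 53959405 expected counts. Ppara, the targeted gene, was at 11.4, 11.1 and 17.3 CPM (the usual count scaled by library size) in KO HFD libraries 1, 2 and 3 and at 39.3, 36.6 and 33.7 CPM in WT HFD libraries. It was at 8.42, 15.6 and 13 CPM in KO chow and at 19.2, 18.1 and 22.0 CPM in WT chow libraries, so every KO library lay below every WT library on the same diet. Mature enterocyte markers summed to 26900 to 37900 CPM, and distal ileum markers to 5090 to 6970 CPM against 185 to 420 CPM for colon markers. The 4 defining markers of hepatocytes (Alb, Serpina1a, Fga and Fgb), where Cyp2c genes are best known, summed to at most 0.547 CPM. A wider list of 9 liver genes summed to 5220 to 11600 CPM, nearly all of it Apob (4720 to 11200 CPM) and Cps1 (329 to 524 CPM), which enterocytes also express. The chow libraries of a genotype resembled each other unevenly. KO chow 3 lay between KO chow 1 and 2 for 95.8% of 361 genes that differed at least 2-fold between those libraries, and WT chow 1 lay between WT chow 2 and 3 for 77.1% of 70 genes. For the other 10 libraries the same share was 31.0% to 75.8%. The coefficient of variation among libraries, estimated over all genes tested, was 0.0583 in WT chow. It was 0.152 in KO chow, 0.146 in WT HFD and 0.14 in KO HFD, so the WT chow libraries were unusually close. Whether libraries of a group share material was not tested. Each is counted as a separate sample in n = 3, and SDs and p-values of the chow groups would be too small if they did. Results are therefore also given without WT chow 1 and KO chow 3.

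Of the 9 members, 6 were well above the floor of detection. Cyp2c55, Cyp2c65, Cyp2c68, Cyp2j6, Ephx1 and Ephx2 passed the filter on low counts that left 17602 genes for testing. Cyp2c66 had 155 expected counts over all libraries and fell under the filter. Cyp2c29, an abundant liver epoxygenase, had 16 counts in all, of which 10 were in KO chow 2, 2 in KO chow 1 and 4 in WT chow 1. Cyp2c38 had 0 counts in every library, which allows up to 3 counts per library, or 0.0568 to 0.0917 CPM. These limits cover counting error only.

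Per kilobase of exon, Cyp2j6 and Ephx2 were the most abundant members in both HFD groups. In KO HFD the means were 29.8 CPM per kb for Ephx2, 27.1 for Cyp2j6, 17.1 for Cyp2c68, 11.1 for Cyp2c65, 7.65 for Cyp2c55, 2.22 for Ephx1 and 0.0685 for Cyp2c66. In WT HFD they were 42.8 CPM per kb for Cyp2j6, 39.1 for Ephx2, 24.8 for Cyp2c65, 19.6 for Cyp2c68, 5.58 for Cyp2c55, 2.55 for Ephx1 and 0.5 for Cyp2c66. The libraries of Cyp2j6 and Ephx2 overlapped in both HFD groups, those of Cyp2c65 and Cyp2c55 overlapped in KO HFD, and those of Cyp2c65 and Cyp2c68 overlapped in WT HFD. In KO chow the order was Cyp2j6 (32.1 CPM per kb), Ephx2 (16.8), Cyp2c55 (16.4), Cyp2c68 (15.4), Cyp2c65 (12.2) and Ephx1 (2.26), and from Ephx2 down to Cyp2c65 each gene overlapped the next. In WT chow it was Cyp2j6 (31.2 CPM per kb), Cyp2c65 (15.7), Ephx2 (13.8), Cyp2c68 (10.8), Cyp2c55 (4.73) and Ephx1 (2.31), with no overlap between neighbours.

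**Figure D2:**
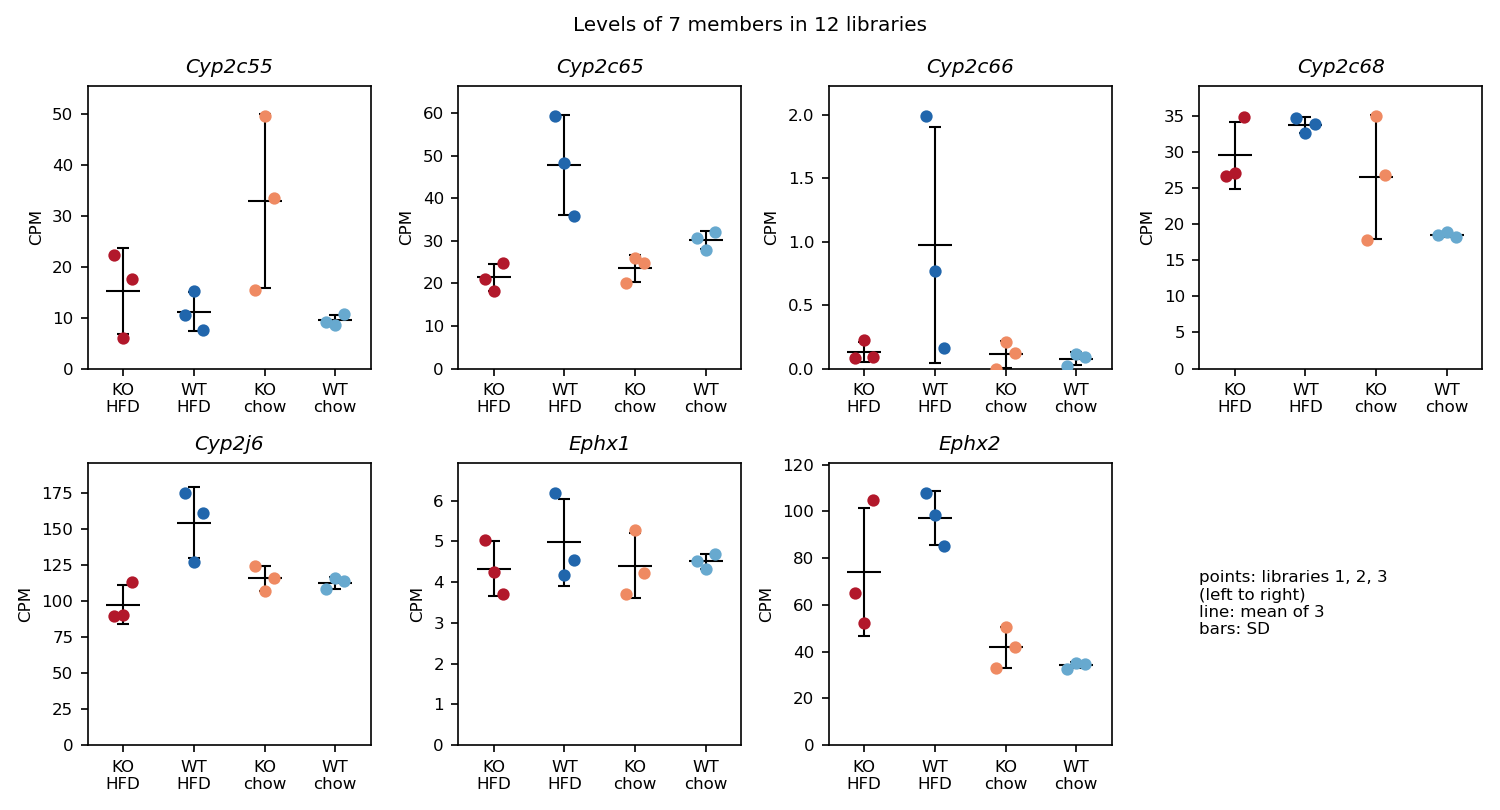
Levels in CPM of 7 members, leaving out Cyp2c29 and Cyp2c38, by group, with a separate linear axis from 0 for each gene. Points are libraries 1, 2 and 3 from left to right, the line is the mean and bars are SD (n = 3). For Cyp2c65 and Cyp2j6 all KO HFD points lie below all WT HFD points, and for Cyp2c55 the KO chow points spread from 15.4 to 49.5 CPM.

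The comparison of KO with WT on the high-fat diet holds the difference by which the genes were chosen. Cyp2c65, an epoxygenase of the mouse gastrointestinal tract, was at 21.1, 18.3 and 24.8 CPM in KO HFD libraries and at 59.3, 48.2 and 35.9 CPM in WT HFD libraries. All KO HFD libraries lay below the lowest WT HFD library. The means were 21.4 ± 3.25 CPM in KO HFD and 47.8 ± 11.7 CPM in WT HFD (SD, n = 3 each), a log2 fold change of -1.16 (SE 0.17), which is 2.24-fold in size. It was -1.17 without WT chow 1 and KO chow 3, which enter the shared estimate of spread and the scaling. Smooth muscle markers summed to 263 to 292 CPM in KO HFD libraries and to 194 to 232 CPM in WT HFD libraries, and 1 of the 10 markers was called higher in edgeR. Most of that sum was Mylk, at 150 to 199 CPM in KO HFD and 158 to 166 CPM in WT HFD libraries. The median log2 fold change of the 10 was 1.03, 9 had an unadjusted p under 0.05 and DESeq2 called 5. Myh11, a smooth muscle myosin gene, was at 49.3, 38.1 and 38.4 CPM in KO HFD and at 26.5, 14 and 11.5 CPM in WT HFD libraries. Mature enterocyte markers summed to 28100 to 36500 CPM in KO HFD and to 33500 to 37900 CPM in WT HFD libraries, and 1 of 10 was called lower. The part of either list in the differences between these groups was not tested. In bulk tissue, fewer cells of a type and less RNA per cell cannot be told apart.

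Cyp2j6 was the other member whose KO HFD and WT HFD libraries did not overlap. It encodes a microsomal P450 abundant in mouse small intestine. Its level was 89.5, 89.9 and 113 CPM in KO HFD libraries and 175, 127 and 161 CPM in WT HFD libraries. Every KO HFD library was lower than every WT HFD library, and the log2 fold change was -0.66 (SE 0.12). Non-overlap with the KO HFD libraries lower was thus seen in 2 of 6 members and in 8.70% of all genes tested. Of all genes, 0.290% differed in this comparison at an adjusted p under 0.05 in edgeR's quasi-likelihood test, and nothing is read from the members' share because the contrast chose them.

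The remaining members overlapped between KO HFD and WT HFD. Cyp2c68, listed among the CYP2C epoxygenases, was at 26.7, 27.1 and 34.9 CPM in KO HFD and at 34.8, 32.7 and 33.9 CPM in WT HFD libraries, where KO HFD 3 reached the WT HFD level (log2 fold change -0.20, SE 0.19). Ephx2 was at 65.1, 52.2 and 105 CPM in KO HFD and at 108, 98.5 and 85.0 CPM in WT HFD libraries. KO HFD 3 was again within the WT HFD range, and the log2 fold change was -0.39 (SE 0.23). Without KO HFD 3, the log2 fold change of Ephx2 was -0.74. Cyp2c55 was at 22.3, 5.91 and 17.6 CPM in KO HFD and at 10.6, 15.2 and 7.64 CPM in WT HFD libraries. The KO HFD libraries of Cyp2c55 lay on both sides of the WT HFD libraries (log2 fold change 0.45, SE 0.54). Ephx1 was low in both groups, with 3.70 to 5.03 CPM in KO HFD and 4.17 to 6.19 CPM in WT HFD (log2 fold change -0.20, SE 0.18). The median log2 fold change over the 6 members was -0.30, beside 0.00 over all genes.

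Cyp2c66 was near its floor except in WT HFD libraries 1 and 2. It held 3.11, 8.15 and 3.16 expected counts in KO HFD and 80.4, 31.1 and 6.12 in WT HFD libraries. It held 0, 8.26 and 4.08 in KO chow and 1.03, 4.13 and 5.11 in WT chow libraries. WT HFD 1 had the highest count and also the highest Cyp2c65 level, and its Cyp2c66 count was 3.37% of its Cyp2c65 count. The same share was 1.60% in WT HFD 2, 0.464% in WT HFD 3 and 0 to 1.25% in the other libraries. Whether reads of Cyp2c65 placed in its copy account for these counts was not tested. With the counts of both genes summed, the log2 fold change of KO HFD against WT HFD was -1.18.

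**Figure D3:**
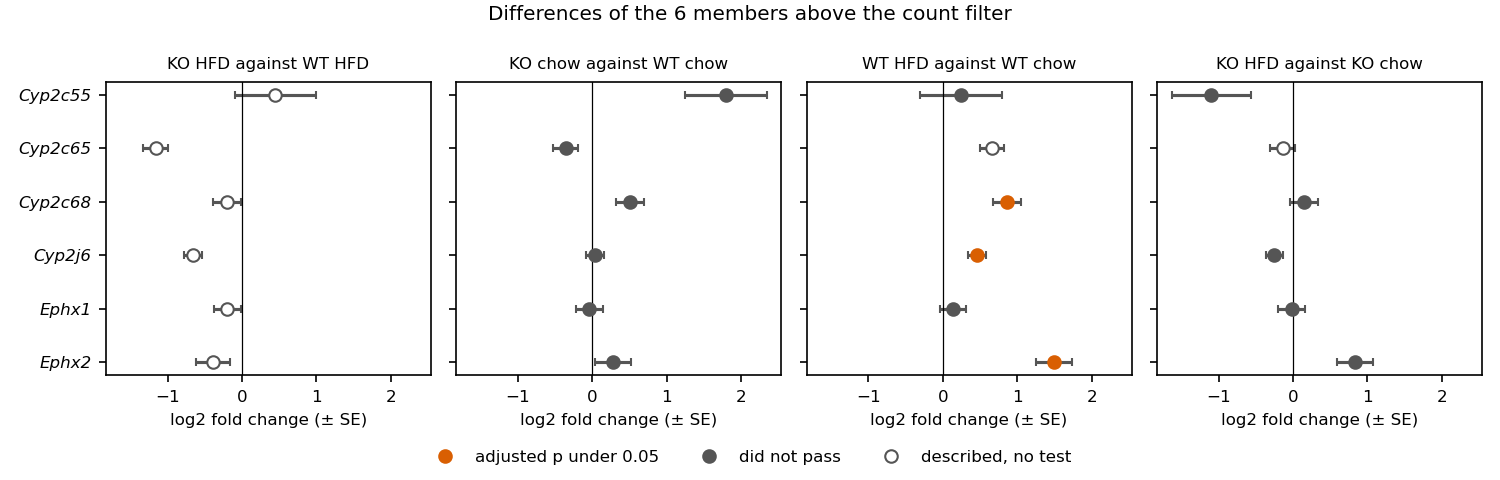
Log2 fold changes with SE of the 6 members above the count filter in the 4 comparisons, the group named first in each panel over the group named after it. Open points are described without a test, orange points passed an adjusted p of 0.05 and grey points did not. Orange points occur for Cyp2c68, Cyp2j6 and Ephx2 in WT HFD against WT chow.

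Genotype was also compared on chow, in libraries that did not enter the choice of the genes. None of the 6 members passed the test there, and the widest difference was that of Cyp2c55. Cyp2c55, known from the mouse large intestine and inducible by xenobiotics, was at 15.4, 49.5 and 33.5 CPM in KO chow libraries and at 9.08, 8.55 and 10.7 CPM in WT chow libraries. All KO chow libraries lay above all WT chow libraries, with KO chow 2 highest and KO chow 1 lowest of them. The means were 32.8 ± 17.1 CPM in KO chow and 9.43 ± 1.10 CPM in WT chow (SD, n = 3 each), which is 1.79 on the log2 scale (SE 0.55, adjusted p = 0.26 in edgeR's quasi-likelihood test with Benjamini-Hochberg adjustment). It was 1.36 without KO chow 2 and 1.75 without WT chow 1 and KO chow 3.

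Cyp2c65 was at 20.0, 25.9 and 24.7 CPM in KO chow libraries and at 30.6, 27.9 and 32.2 CPM in WT chow libraries. All KO chow libraries lay below all WT chow libraries, as on the high-fat diet, but the log2 fold change of -0.36 (SE 0.17) did not pass the test (adjusted p = 0.38). It was -0.39 without WT chow 1 and KO chow 3. Cyp2c68 was at 17.8, 35.0 and 26.8 CPM in KO chow libraries and at 18.5, 18.9 and 18.3 CPM in WT chow libraries. KO chow 1 lay below the WT chow libraries and the other KO chow libraries above them (log2 fold change 0.51, SE 0.19, adjusted p = 0.30). Without KO chow 1 the log2 fold change of Cyp2c68 was 0.74 and passed (adjusted p = 0.0089), in a setting where 2.88% of all genes were called. Over its 20 alternative settings the adjusted p ran from 0.0089 to 0.89.

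The other 3 members had overlapping chow libraries. Cyp2j6 was at 124, 107 and 116 CPM in KO chow and at 108, 116 and 114 CPM in WT chow libraries (log2 fold change 0.04, SE 0.12, adjusted p = 0.92). Ephx2 was at 33.1, 50.4 and 41.8 CPM in KO chow and at 32.7, 35.3 and 34.8 CPM in WT chow libraries (log2 fold change 0.28, SE 0.24, adjusted p = 0.63). Ephx1 was at 3.70 to 5.27 CPM in KO chow and at 4.32 to 4.69 CPM in WT chow libraries (log2 fold change -0.04, SE 0.18, adjusted p = 0.95). A share of 0 of 6 members called in edgeR stands beside 0.125% of all genes tested. DESeq2 also called 0 of 6, and 3 of 6 (Cyp2c55, Cyp2c65 and Cyp2c68) had an unadjusted p under 0.05 in edgeR. The share of all genes under that unadjusted threshold was not counted for any comparison, so nothing is read from such counts. The targeted gene Ppara did not pass here either (log2 fold change -0.68, SE 0.21, adjusted p = 0.25 in edgeR). The test on chow can thus miss a difference of that size. Libraries did not overlap for 2 of 6 members and for 22.1% of all genes. The median log2 fold change of the 6 members was 0.16, beside 0.00 over all genes. Proximal intestine markers summed to 210 to 218 CPM in KO chow and to 123 to 153 CPM in WT chow libraries, and their part in these differences was not tested.

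The high-fat diet against chow within WT asks how the route differs between these diets with Ppara intact. Whether the diets differ in more than fat was not tested. Ephx2, Cyp2c68 and Cyp2j6 rose, which is 3 of the 5 members tested, while 6.80% of all genes rose and 13.4% changed in either direction. Cyp2c65 is described without a test because its WT HFD libraries entered the choice of the genes. Ephx2 was at 108, 98.5 and 85.0 CPM in WT HFD libraries and at 32.7, 35.3 and 34.8 CPM in WT chow libraries. The WT HFD libraries lay far above the WT chow libraries, with means of 97.2 ± 11.7 CPM in WT HFD and 34.3 ± 1.37 CPM in WT chow (SD, n = 3 each). The difference was 2.84-fold (log2 fold change 1.5, SE 0.24, adjusted p = 0.0046 in edgeR), and it passed the test in 20 of 20 alternative settings.

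Cyp2c68 was at 34.8, 32.7 and 33.9 CPM in WT HFD libraries and at 18.5, 18.9 and 18.3 CPM in WT chow libraries. Libraries within each group were close, and the groups stood apart by 1.82-fold (log2 fold change 0.86, SE 0.19, adjusted p = 0.014). Cyp2j6 was at 175, 127 and 161 CPM in WT HFD libraries and at 108, 116 and 114 CPM in WT chow libraries. The lowest WT HFD library, WT HFD 2, was still above every WT chow library, and the difference was 1.37-fold (log2 fold change 0.46, SE 0.12, adjusted p = 0.020). Cyp2c65 was at 59.3, 48.2 and 35.9 CPM in WT HFD libraries and at 30.6, 27.9 and 32.2 CPM in WT chow libraries, again without overlap (log2 fold change 0.66, SE 0.16). The libraries of WT HFD thus lay above those of WT chow for 4 of 6 members, beside 19.3% of all genes. Nothing is read from that share, since the 4 include Cyp2c65, whose WT HFD libraries entered the choice of the genes.

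Neither Cyp2c55 nor Ephx1 passed the test in this comparison. Cyp2c55 was at 10.6, 15.2 and 7.64 CPM in WT HFD libraries and at 9.08, 8.55 and 10.7 CPM in WT chow libraries (log2 fold change 0.24, SE 0.55, adjusted p = 0.82). Ephx1 was at 6.19, 4.17 and 4.55 CPM in WT HFD libraries and at 4.52, 4.32 and 4.69 CPM in WT chow libraries (log2 fold change 0.14, SE 0.17, adjusted p = 0.64). Cyp2c66 was fitted only where no filter was used, and its log2 fold change was then 3.61 (SE 0.98). As a near copy of Cyp2c65 it is described without a test. Its highest counts were 80.4 in WT HFD 1 and 31.1 in WT HFD 2. The median log2 fold change over the 6 members above the filter, Cyp2c65 among them, was 0.56, beside 0.01 over all genes.

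Some of these calls were lost when a single library was left out. The call of Cyp2c68 was lost without WT chow 1 (adjusted p = 0.056) or WT chow 3 (0.057). In each of these fits 4.98% of all genes were called, beside 13.4% with all libraries. The log2 fold change of Cyp2c68 stayed at 0.82 to 0.88 over 20 alternative settings. The call of Cyp2j6 was lost without WT chow 1 (adjusted p = 0.090), WT chow 2 (0.059), WT chow 3 (0.069), WT HFD 1 (0.071) or WT HFD 3 (0.073). Of all genes, 6.38% were called without WT chow 2, 14.1% without WT HFD 1 and 6.66% without WT HFD 3. The log2 fold change of Cyp2j6 ran from 0.34 to 0.57 over 20 alternative settings. Without WT chow 1 and KO chow 3 together, 2.55% of all genes changed, and of the members Ephx2 passed (log2 fold change 1.46, adjusted p = 0.047). Cyp2c68 (log2 fold change 0.85, adjusted p = 0.089) and Cyp2j6 (0.42, adjusted p = 0.13) did not pass in that setting. Mature enterocyte markers summed to 33500 to 37900 CPM in WT HFD and to 27100 to 27200 CPM in WT chow libraries, and 4 of 10 rose. Proximal intestine markers summed to 214 to 487 CPM in WT HFD and to 123 to 153 CPM in WT chow libraries, and 2 of the 6 tested rose. Endothelial markers summed to 39.0 to 44.9 CPM in WT HFD and to 27.8 to 31.8 CPM in WT chow libraries, and 3 of 8 rose. Colon markers summed to 201 to 219 CPM in WT HFD and to 310 to 345 CPM in WT chow libraries, and 2 of the 4 tested fell. Of 7 goblet cell markers 2 fell, and of 6 distal ileum markers 2 rose. The part of these markers in the diet differences of the members was not tested.

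In the high-fat diet against chow within KO, 0 of the 5 members tested passed in edgeR, beside 8.20% of all genes. Ephx2 was at 65.1, 52.2 and 105 CPM in KO HFD libraries and at 33.1, 50.4 and 41.8 CPM in KO chow libraries. The lowest KO HFD library was just above the highest KO chow library, and it was the 1 member of 6 whose KO HFD libraries all lay above, beside 12.7% of all genes. Its log2 fold change was 0.83 (SE 0.24, adjusted p = 0.060), and it ran from 0.47 without KO HFD 3 to 1.02 without KO HFD 2. Ephx2 alone had an unadjusted p under 0.05, and it passed in DESeq2 (adjusted p = 0.0011), with a filter of 50 counts in 3 libraries (0.041), without KO chow 2 (0.043) and without KO HFD 2 (0.022). Without WT chow 1 and KO chow 3 its log2 fold change was 0.81 (adjusted p = 0.22).

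Cyp2j6 was at 89.5, 89.9 and 113 CPM in KO HFD libraries and at 124, 107 and 116 CPM in KO chow libraries. Its KO HFD libraries were lower on average and overlapped the KO chow libraries (log2 fold change -0.25, SE 0.12, adjusted p = 0.20). Cyp2c55 was at 22.3, 5.91 and 17.6 CPM in KO HFD libraries and at 15.4, 49.5 and 33.5 CPM in KO chow libraries. The spread within each of these groups was wide (log2 fold change -1.10, SE 0.53, adjusted p = 0.24). Cyp2c68 (log2 fold change 0.15, SE 0.19, adjusted p = 0.67) and Ephx1 (-0.02, SE 0.18, adjusted p = 0.96) overlapped as well. Cyp2c65 was at 21.1, 18.3 and 24.8 CPM in KO HFD libraries and at 20.0, 25.9 and 24.7 CPM in KO chow libraries, with overlap (log2 fold change -0.14, SE 0.17, described without a test). The median log2 fold change of the 6 members was -0.08, beside 0.01 over all genes. Smooth muscle markers summed to 263 to 292 CPM in KO HFD and to 188 to 194 CPM in KO chow libraries, with 3 of 10 called higher. Goblet cell markers summed to 24300 to 28300 CPM in KO HFD and to 29400 to 29800 CPM in KO chow libraries, with 3 of 7 called lower, and 2 of the 4 colon markers tested were lower. Of 10 enterocyte markers 2 were higher. The part of these markers in the values was not tested. Whether the diet effect of a member differs between genotypes was not tested, and the comparisons share libraries.

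The values of the members across libraries were set beside those of other genes. Over the 12 libraries, among tested genes with an established symbol and a mean log2(CPM + 0.5) of at least 1, the genes outside the group whose log2(CPM + 0.5) was most like that of Cyp2c65 were Usp50 (Pearson r 0.961), Gpx4 (0.954), Ppara (0.947), Cisd3 (0.935) and Clps (0.920). These libraries share their group, diet and scaling, Cyp2c65 was chosen for its level in 2 of the groups and Ppara differs by design, so the likeness is a description. With group means taken out, r with Ppara was 0.738 for Cyp2c65, and it was higher for Cyp2c68 (0.911) and Ephx2 (0.878). It was 0.679 for Cyp2c55, 0.281 for Ephx1 and 0.128 for Cyp2j6. Among members, Cyp2c65 was most like Cyp2j6 (r 0.776), and Cyp2c68 was most like Ephx2 (r 0.873). Cyp2c55 had an r of -0.206 to 0.304 with the other 5.

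Cyp2c68 and Cyp2c55 were set beside companions picked after their values were seen. Lct, the lactase of proximal and mid small intestine, was at 50.2, 128 and 144 CPM in KO HFD, 256, 160 and 76.2 CPM in WT HFD, 0.453, 102 and 57.6 CPM in KO chow and 2.24, 2.75 and 2.01 CPM in WT chow libraries. Lct was thus low in WT chow and in KO chow 1, where Cyp2c68 was also low, and r between them was 0.953 over 12 libraries and 0.889 with group means taken out. In KO chow both genes were lowest in library 1 and highest in library 2, with Cyp2c68 at 17.8 and 35.0 CPM. In WT HFD, Lct ran from 76.2 to 256 CPM while Cyp2c68 stayed at 32.7 to 34.8 CPM. How far the r within groups rests on KO chow was not tested. The 7 proximal markers, Lct among them, summed to 213 to 304 CPM in KO HFD, 214 to 487 CPM in WT HFD, 210 to 218 CPM in KO chow and 123 to 153 CPM in WT chow. In KO chow libraries most of the rest of that sum was Slc40a1, an iron exporter gene, at 201, 103 and 150 CPM, highest where Lct was lowest. In WT HFD 1 and 2 the larger part of the rest was Fabp1, which is also among the PPARA targets and was at 9.06, 18.0 and 13.2 CPM in KO HFD and 156, 104 and 29.8 CPM in WT HFD libraries. The part of the segment sampled in the diet difference of Cyp2c68 or of Ephx2 (r with Lct 0.839) was not tested. Cyp3a11, a target of the xenobiotic receptor PXR, was at 7.97, 34.5 and 23.7 CPM in KO chow libraries and at 2.18 to 4.07 CPM in the other groups. KO chow 2 was highest and KO chow 1 lowest of the KO chow libraries for Cyp3a11, as they were for Cyp2c55 (r 0.843 over 12 libraries, 0.690 with group means taken out). With group means taken out, r was also 0.846 between Cyp2c68 and Cyp3a11 and 0.520 between Cyp2c55 and Lct, so within groups these companions were not particular to 1 member.

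**Figure D4:**
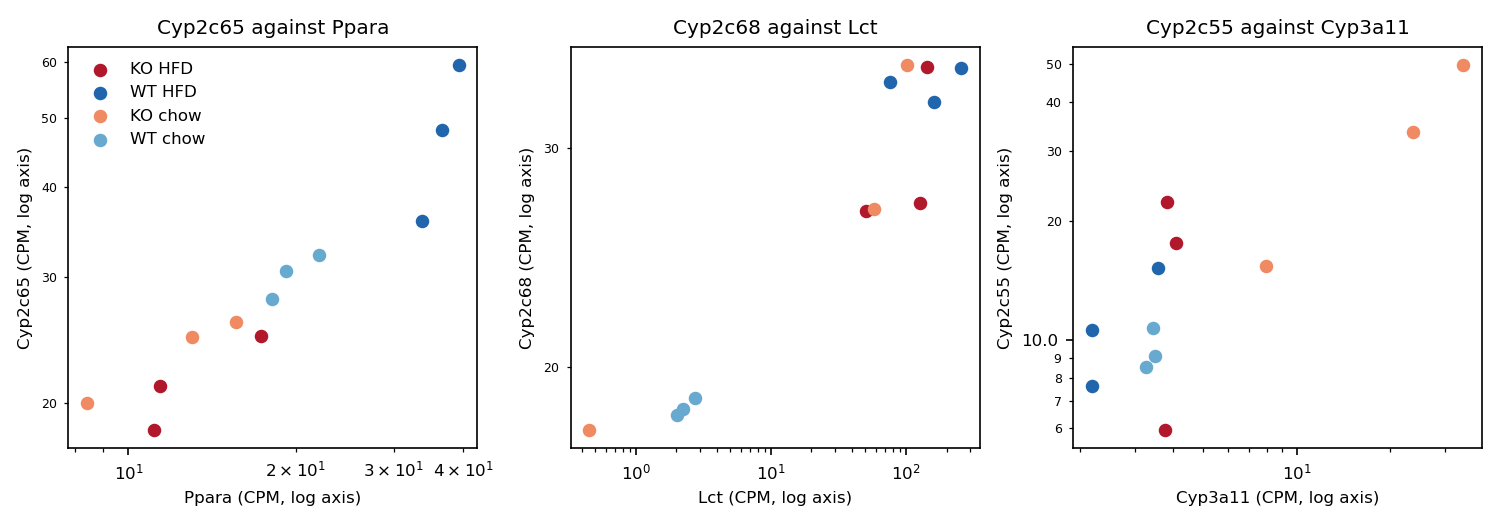
Cyp2c65 against Ppara, Cyp2c68 against Lct and Cyp2c55 against Cyp3a11, in CPM on log axes, with a point for each of the 12 libraries coloured by group. In the middle panel KO chow 1, at 0.453 CPM of Lct and 17.8 CPM of Cyp2c68, lies near the WT chow libraries and apart from the other KO chow libraries.

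Other genes of the same families were sparse in these libraries. Of 9 other CYP2C genes only Cyp2c23 passed the count filter, at 0.298 to 0.966 CPM, and of 7 other CYP2J genes only Cyp2j9, at 0.746 to 2.40 CPM. On the log2 scale Cyp2j9 differed by -0.74 in KO HFD against WT HFD (SE 0.29, adjusted p = 0.29) and by 0.78 in WT HFD against WT chow (SE 0.28, adjusted p = 0.082). Of 3 other epoxide hydrolases, Lta4h, which hydrolyses leukotriene A4, passed the filter and lay between 157 and 181 CPM in every library. None of these 3 tested genes was called in edgeR or DESeq2 in any of the 4 comparisons, and Cyp2j9 in the 2 comparisons above had the unadjusted p-values under 0.05.

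Of 5 listed electron donors of microsomal P450s, 2 rose with the diet in WT and 3 did not pass the test. Por, the P450 reductase, rose to 143 ± 19.2 CPM in WT HFD, against 90.6 ± 2.92 CPM in WT chow (SD, n = 3 each, log2 fold change 0.66, SE 0.12, adjusted p = 0.0038). Cyb5r3, a cytochrome b5 reductase, rose by 0.37 on the log2 scale (SE 0.09, adjusted p = 0.019). Cyb5a had a log2 fold change of 0.14, Cyb5b of 0.01 and Cyb5r1 of -0.24. The median of the 5 was 0.14, beside 0.01 over all genes. In KO HFD against WT HFD 0 of 5 passed in edgeR, 3 had an unadjusted p under 0.05 and DESeq2 called 2. There Por was at 95.4, 82.9 and 118 CPM in KO HFD libraries and at 142, 163 and 125 CPM in WT HFD libraries, without overlap (log2 fold change -0.54, SE 0.12, adjusted p = 0.087). In KO HFD against KO chow the log2 difference of Por was 0.10 (SE 0.12, adjusted p = 0.65). Genotype on chow and diet in KO gave 0 of 5 calls in edgeR and in DESeq2, with 0 and 1 unadjusted p-values under 0.05.

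Phospholipases that can release arachidonate fell with the diet where they changed. In WT HFD against WT chow 3 of 10 tested fell, namely Pla2g5 (log2 fold change -1.51, SE 0.27, adjusted p = 0.0055), Pla2g10 (-0.58, SE 0.13, adjusted p = 0.0099) and Pla2g2f (-0.45, SE 0.12, adjusted p = 0.024). In KO HFD against KO chow 2 of 10 fell, Pla2g2f (-0.64, adjusted p = 0.0076) and Pla2g10 (-0.63, adjusted p = 0.011). The genotype comparisons gave 0 of 10 on either diet in edgeR and in DESeq2, with 4 unadjusted p-values under 0.05 on HFD and 1 on chow.

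In the competing routes of arachidonate, calls came only in WT HFD against WT chow, where 13.4% of all genes were called. Of 9 tested prostanoid genes, WT HFD against WT chow gave a rise of Ptgs1, the constitutive cyclooxygenase (log2 fold change 0.47, adjusted p = 0.026), and of Hpgd, which inactivates prostaglandins (0.46, adjusted p = 0.032), and a fall of Ptges2 (-0.30, adjusted p = 0.047). The other comparisons gave 0 of 9 in edgeR and in DESeq2, with 2 unadjusted p-values under 0.05 in KO HFD against KO chow and 0 in the genotype comparisons. Of the 5 tested genes of lipoxygenase and leukotriene synthesis, 0 were called in any comparison in edgeR or DESeq2. Unadjusted p-values under 0.05 numbered 2 in each genotype comparison, 3 for diet in KO and 0 for diet in WT.

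Among 8 listed regulators of Cyp2c genes, Ppara alone was called. It fell in KO HFD against WT HFD (log2 fold change -1.46, SE 0.21, adjusted p = 0.031) and rose in WT HFD against WT chow (0.89, SE 0.21, adjusted p = 0.019). Hnf4a, whose motif is shown above, had log2 fold changes of -0.03 (SE 0.09) and 0.02 (SE 0.09) in these comparisons. Nr1i2, which encodes PXR, had 0.04 (SE 0.08) and 0.08 (SE 0.08). For the other comparisons 0 of 8 passed in edgeR and in DESeq2, with 2 unadjusted p-values under 0.05 for genotype on chow and 0 for diet in KO. Ppara, the targeted gene, was among those that did not pass for genotype on chow (log2 fold change -0.68, SE 0.21, adjusted p = 0.25 in edgeR).

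Known PPARA targets, mostly of fatty acid oxidation, were counted in the same comparisons. In WT HFD against WT chow 15 of 18 rose in edgeR, with a median log2 fold change of 0.66, and DESeq2 called 16. In KO HFD against KO chow 8 of 18 rose in edgeR, with a median of 0.53, and DESeq2 called 12. Among those with the smallest adjusted p in WT were Acaa1b, a peroxisomal thiolase (log2 fold change 3.77 in WT, adjusted p = 0.00034), and Angptl4, an inhibitor of lipoprotein lipase (2.22 in WT and 1.26 in KO, adjusted p = 0.00034 and 0.0079). Pdk4 and Fabp1 had larger log2 fold changes in WT (7.78 and 5.48, adjusted p = 0.0055 and 0.0018 in edgeR). Pdk4 was at only 0.0456 to 0.203 CPM in WT chow libraries. In KO the smallest adjusted p was that of Cpt2 (log2 fold change 0.55, adjusted p = 0.0047). In KO HFD against WT HFD 3 of 18 fell in edgeR, namely Acaa1b (-2.34, adjusted p = 0.031), Acadvl (-0.64, adjusted p = 0.031) and Aldh3a2 (-0.57, adjusted p = 0.042). There 17 of 18 had an unadjusted p under 0.05, and DESeq2 called 7. On chow 0 of 18 differed by genotype in edgeR and in DESeq2, with 4 unadjusted p-values under 0.05. Without WT chow 1 and KO chow 3 the counts were 8 for diet in WT and 0 for diet in KO and for genotype on HFD. In that setting diet in WT gave 1 call among electron donors, 1 among phospholipases and 0 among prostanoid genes and regulators, and the other comparisons gave 0 in these lists.

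**Figure D5:**
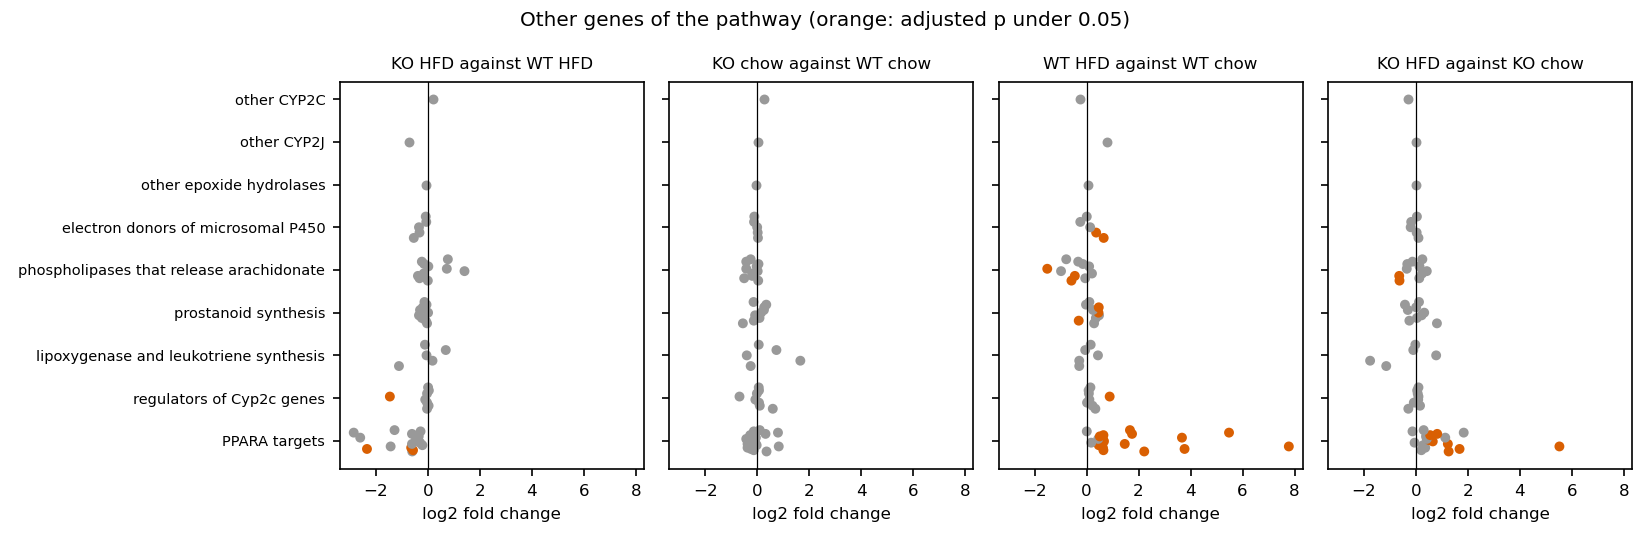
Log2 fold changes of the other listed genes of the pathway in the 4 comparisons, the group named first in each panel over the other, with a point per tested gene in rows by list. Orange points have an adjusted p under 0.05 and grey points do not. In WT HFD against WT chow 15 of 18 PPARA targets are orange and to the right of 0, and the 3 orange phospholipases are to the left.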

How the data were processed

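Bulk RNA-seq of 12 mouse intestine libraries was used, in 4 groups of 3 taken from the sample titles and the genotype and treatment labels. The labels' protocols name a stranded kit for total RNA. The authors deposited expected counts per gene, which need not be whole and are not scaled between libraries. Trimmomatic, STAR, Picard, RSEM and the mm10 build are named in the submitters' processing notes, without roles or versions. The annotation release and the strand setting of the counting were not given in the sources used here. Since RSEM divides reads between genes of like sequence, near copies are uncertain, and overlapping antisense genes may hold each other's reads.

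Expected counts were rounded and tested with edgeR 4.0.16 (TMM scaling, default filter on low counts, robust quasi-likelihood F test) in R 4.3.3, with all 12 libraries in a fit of 4 group means. Benjamini-Hochberg adjustment ran over the 17602 genes tested, with a threshold of 0.05. SEs were derived from the F statistic. CPM used TMM-scaled totals. Correlations used log2(CPM + 0.5), and a floor was 3 counts. Gene IDs were matched to GENCODE vM21 (47224 of 47643), promoters came from RefSeq, and sequences were compared with Biopython 1.88. The script was tested on simulated data. Totals were 33621040 to 53959405 counts per library, so 1 CPM stands for 33.6 to 54.0 counts before scaling.

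Alternatives were DESeq2 1.42.0, its size factors in edgeR, a filter raised to 50 counts in 3 libraries or dropped, fits of the 2 compared groups alone, a block for the replicate number, each library left out (12 fits), WT chow 1 and KO chow 3 left out together, and near copies summed. Members, gene lists and tests were chosen with earlier results of these data known. All 9 members are named, with up to 4 called genes per pathway list and comparison by smallest p, and the 5 genes most like Cyp2c65. Por, Hnf4a, Nr1i2, Cyp2j9, Cyp2c23, Lta4h, Lct, Cyp3a11, Cyb5a, Cyb5b, Cyb5r1, Slc40a1, Fabp1, Pdk4, Apob, Cps1, Mylk and Myh11 were named after their values were seen, where that rule did not name them.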

Additional observations from a re-analysis of the deposited data

Results flagged for a closer look

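The mean diet difference of Cyp2j6 had opposite signs in the genotypes. The mean CPM difference was 41.8 for WT HFD minus WT chow, with each WT HFD library above the mean of WT chow, and -18.1 for KO HFD minus KO chow, with each KO HFD library below the mean of KO chow. The rise in WT passed the test (adjusted p = 0.020 in edgeR's quasi-likelihood fit) and did so in 14 of 20 alternative settings. The KO HFD and KO chow libraries overlapped and that difference did not pass (log2 fold change -0.25, adjusted p = 0.20). The difference between these diet effects was not tested. The HFD libraries entered the choice of the genes through Cyp2c65, and Cyp2j6 had an r of 0.776 with Cyp2c65 over 12 libraries.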

How the results depend on the processing

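In WT HFD against WT chow 3 members were called, and 1 to 3 when each library was left out in turn (1 without WT chow 1 or WT chow 3). The count was 1 without WT chow 1 and KO chow 3 together, where the lone call was Ephx2. In KO HFD against KO chow 0 members were called, and 1 (Ephx2) by DESeq2 and with a filter of 50 counts in 3 libraries, where its adjusted p was 0.0011 and 0.041 and 12.2% and 11.8% of all genes were called. Leaving out libraries gave 0 to 1 there, and 0 to 1 in KO chow against WT chow, where Cyp2c68 was called without KO chow 1. The cause of these changes was not tested. Of 320 tested values of single members under alternatives, 298 kept direction and side of the threshold, 9 no longer passed, 5 newly passed and 8 turned direction. A further 160 values were described without a test, and each moved by less than the spread between replicates. The median log2 fold change of the members in KO HFD against WT HFD was -0.30, and -0.54 to -0.19 when libraries were left out. That of Cyp2c65 was -1.33 to -0.98 and that of Cyp2j6 -0.79 to -0.56 over 20 settings.

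Some small log2 fold changes, none of them past the test, turned direction when a library was left out, and their ranges follow. In KO chow against WT chow Cyp2j6 ran from -0.01 to 0.09 and Ephx1 from -0.19 to 0.08, both turning without KO chow 1. For diet in WT, Cyp2c55 ran from -0.06 (without WT HFD 2) to 0.45 and Ephx1 from -0.07 (without WT HFD 1) to 0.24. For diet in KO, Cyp2c68 ran from -0.09 (without KO chow 1) to 0.40, with -0.0016 without KO HFD 3, and Ephx1 from -0.16 to 0.12 (without KO chow 2), with 0.06 without KO HFD 3. The replicate number as a block gave the same counts (0 for genotype on chow, 3 for diet in WT, 0 for diet in KO). Same-numbered libraries correlated at -0.111 to 0.143 in their deviations from group means. Such values cannot exclude a shared batch, and whether these libraries share more than a number was not tested. Across all genes, DESeq2 called 288 in KO HFD against WT HFD and 186 in KO chow against WT chow, beside 51 and 22 in edgeR. Summing near copies changed none of these member counts. Depth limits Cyp2c66, Cyp2c29 and Cyp2c38, and 3 libraries a group limit the rest.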
